A study of Mus musculus with 6 samples.

Results

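The genes described here encode the proteins of the cytosolic ribosome, measured in the skin of wild-type and tight-skin (Tsk) mice. They were taken by name from the deposited count table: protein-coding rows named Rpl or Rps followed by a digit, with Rpsa, Rplp0, Rplp1 and Rplp2, without the Rps6k kinases, and with a mean count of at least 10 over the 6 libraries. This gave 88 of 55291 rows. Of 94 rows with such a name, 6 fell under the minimum. The closest of these was Rpl9-ps6 at a mean count of 7.13, and the lowest row inside was Rpl39l at 12.8. The 88 comprise 77 core ribosomal proteins (46 of the large and 31 of the small subunit), 6 divergent paralogs, 3 retrocopies with a coding annotation and 2 rows that are no ribosomal proteins, Rps19bp1 and Rps23rg1.

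Ribosomal proteins assemble with ribosomal RNA in the nucleolus into a small subunit, which reads the messenger RNA, and a large subunit, which joins amino acids. Most of their messenger RNAs start with a short run of pyrimidines, the terminal oligopyrimidine (TOP) tract, through which growth signals by mTOR and the RNA-binding protein Larp1 set their translation. The genes are expressed in every cell, and cells that divide or secrete much protein hold many ribosomes. Skeletal muscle, which underlies the dermis as the panniculus carnosus, makes a paralog of its own, Rpl3l, that can take the place of Rpl3 in the large subunit.

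Dorsal skin was sampled from wild-type mice in 3 samples (strain C57BL/6, replicates 1, 2 and 3) and from Tsk mice in 3 samples (strain B6.Cg-Fbn1Tsk/J, genotype written Fbn1+/-, replicates 4, 5 and 6), all at day 40 and with no treatment named. Tsk is known as an internal duplication in Fbn1, the gene of fibrillin 1, carried in all tissues, and the labels leave unsaid whether samples are different animals, so a p-value here reflects sample-to-sample spread that may be technical. Whole skin was ground up, so in these bulk samples fewer cells of a type and less RNA per cell cannot be told apart. Library totals ran from 17561271 to 19219622 counts, and the factors of edgeR's trimmed mean of M values (TMM) averaged 0.912 ± 0.103 in wild-type skin and 1.10 ± 0.0346 in Tsk (SD, n = 3 each). Fbn1 stood at 302 ± 45.6 CPM (counts scaled to a common library size) in wild-type skin and 1758 ± 301 in Tsk (SD, n = 3 each), which separates the labelled groups. All 8 basal and 9 suprabasal keratinocyte genes and all 20 skeletal muscle genes were detected. The B cell and red blood cell markers were all detected too, so detection alone does not check the labelled tissue. In wild-type and Tsk skin the muscle markers took 22.6 ± 4.34% and 16.5 ± 1.12% of counts (SD, n = 3 each). The basal keratinocyte markers took 0.765 ± 0.221% and 0.657 ± 0.139%, and the suprabasal ones 0.118 ± 0.0283% and 0.205 ± 0.0580%.

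The sequences around the starts of some of these genes hold pyrimidine runs, which lie at the start in some and apart from it in others. The sequences are RefSeq promoters of the GRCm38.p6 assembly (the build that mm10 names), each from 40 bases before the annotated start to 20 from the start on, 5′ to 3′ on the gene's strand, with the longest run of C and T in capitals. They are shown for Rps6, a standard core gene, for Rpl35, whose reads lie mostly on copies, for Rps27 with its retrocopy Rps27rt and its paralog Rps27l, and for the paralogs Rpl22l1 and Rpl3l.
Rps6: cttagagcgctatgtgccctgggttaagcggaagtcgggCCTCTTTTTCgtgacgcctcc
Rpl35: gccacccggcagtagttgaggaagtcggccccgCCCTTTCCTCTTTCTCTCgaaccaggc
Rps27: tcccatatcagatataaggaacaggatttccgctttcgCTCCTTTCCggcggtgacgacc
Rps27rt: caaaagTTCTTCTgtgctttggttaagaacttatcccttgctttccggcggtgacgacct
Rps27l: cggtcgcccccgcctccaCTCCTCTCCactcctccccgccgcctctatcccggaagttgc
Rpl22l1: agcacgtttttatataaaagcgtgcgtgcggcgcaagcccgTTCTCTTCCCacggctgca
Rpl3l: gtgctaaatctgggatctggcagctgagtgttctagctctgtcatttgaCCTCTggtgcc

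They lie at chr4:86857348-86857407 (minus strand), chr2:39005112-39005171 (minus), chr3:90213629-90213688 (minus), chr9:114982720-114982779 (minus), chr9:66946046-66946105 (plus), chr3:28805468-28805527 (plus) and chr17:24727786-24727845 (plus). In Rps6 a run of 10 pyrimidines crosses the start, and in Rpl35 a run of 18 does. The longest run in the Rpl3l window has 5 bases and lies after the start. The runs marked in Rps27rt (7 bases) and Rps27l (9 bases) lie wholly before the annotated start. These marked runs are therefore not a TOP tract of a transcript from that start. A shorter run in Rps27rt, a C followed by at least 4 pyrimidines, begins at its annotated start. Rps27l and Rpl3l each had 2 annotated starts, and the start nearest the 5′ end of the deposited gene is shown. The longest stretch that Rps27 and its retrocopy Rps27rt share in these windows is 19 bases, from base 1 after the start of Rps27rt and base 2 after that of Rps27. At the first base of the GENCODE principal transcript, a C followed by at least 4 pyrimidines was present in 9 of 87 rows (10.3%), against 2.27% of 21121 genes. This count needs an annotated start that is exact to the base, so it does not give the share of rows with a TOP tract. In the windows above, the run begins 1 base before the RefSeq start in Rps6 and 7 bases before it in Rpl35. RefSeq gave promoters (250 bases before to 50 after the start) for 66 of the 88 rows. A run of at least 8 pyrimidines within 20 bases either side of the start was present in 31 of the 66 (47.0%), against 18.4% of all 27025 genes with a promoter. On both strands of the whole promoter, CCGGAAG, the core of the ETS factor site, was present in 39.4% against 9.93% of all genes. GGGCGG, the SP1 box, was in 60.6% against 38.2%, AAGATGGC, the YY1 site, in 9.09% against 3.19%, and CACGTG, the E-box of Myc, in 9.09% against 8.09%. Each motif was counted on its own, and matches of different motifs may overlap. A pyrimidine run was read on the gene's strand only.

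Per kilobase of the annotated principal transcript, the core genes ran from 7.51 to 344 CPM, with a median of 89.1 CPM per kilobase over all 6 libraries. The highest were Rps29, a small zinc-binding protein of the small subunit, at 344 CPM per kilobase, the stalk protein Rplp1 at 338, Rps15 at 303 and Rpl41, the smallest ribosomal protein, at 279. Rplp0, which anchors the stalk where elongation factors bind, came next at 278. With the union of all annotated exons as the length, 2 of these 4 highest remained among the 4 highest, so the order depends on the gene models. The lowest rows were Rpl39l, a paralog known from testis, at 0.838 CPM per kilobase, and the retrocopy Rpl36a-ps1 at 3.13. Next came Rps19bp1, a nuclear partner of Rps19, at 5.42, and Rpl12, a protein at the base of the stalk, at 7.51. Near-identical copies of Rpl12, described below, held 90.4% of the counts of gene and copies together. Its own row therefore does not give the level of the gene or the low end of the core range.

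Ribosomal protein genes have many processed pseudogenes, and reads of near-identical copies can be given to either row. Of 87 rows with an annotated coding sequence, 77 had at least 1 copy with 95% identity over 80% of the coding length, 551 copies in all, of which 540 were processed pseudogenes. Those copies held 11.8% of the counts of members and copies together, and 44 of them had a mean count of at least 10. For Rpl35 the gene's own row held a mean of 149 counts and its 4 copies 1838, or 92.5% of the family. Of these copies, Gm2000 held a mean of 1835 counts, and it is annotated as protein-coding, not as a pseudogene (99.7% identity). The share on copies was 90.8% for Rpl5 and 90.4% for Rpl12, 64.3% for Rpl11 and 43.9% for Rpl3. Of the 88 rows, 72 had no whole number in any library (within 0.001), as arises when reads are divided between rows, so a single row of this family is an uncertain measure of its gene.

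**Figure D1:**
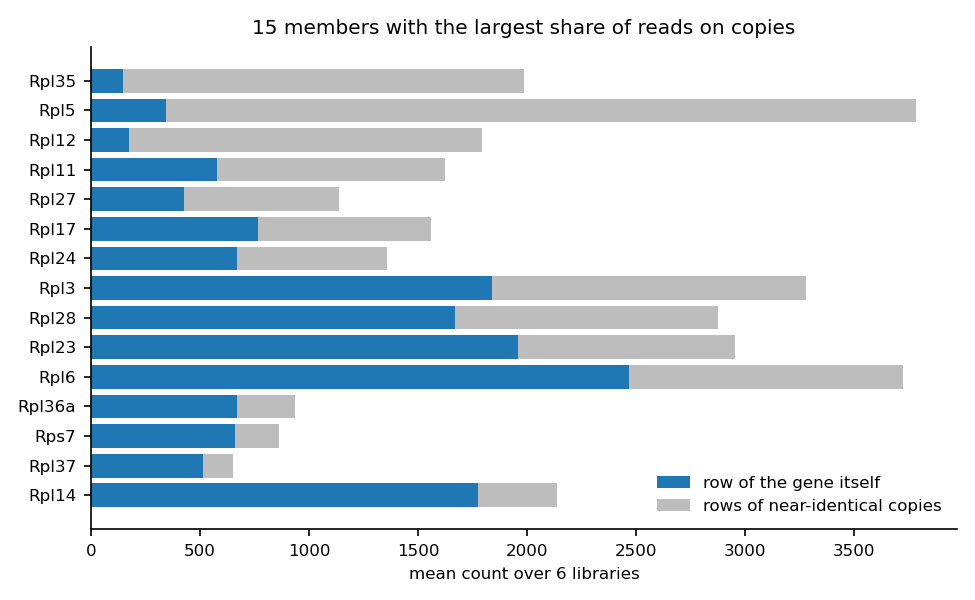
Mean count over 6 libraries (horizontal axis) on the gene's own row (blue) and on rows of near-identical copies (grey) for the 15 members with the largest share on copies. The grey part is 92.5% of the bar for Rpl35, 90.8% for Rpl5 and 90.4% for Rpl12.

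The comparison of Tsk with wild-type skin asked whether the ribosomal protein genes differed between the groups. None of the 88 rows passed, 0 higher and 0 lower, at an adjusted p under 0.05 (edgeR quasi-likelihood test, Benjamini-Hochberg over all 19971 genes tested), where 3.42% of all genes passed, 2.72% higher and 0.696% lower in Tsk. DESeq2 and limma-voom also called 0. At an unadjusted edgeR p under 0.05 there were 6 rows, all lower in Tsk (Rpl3l, Rps27rt, Rpl24, Rpl36al, Rpl32 and Rps25), where 20.1% of all genes had such a p, 12.1% higher and 7.95% lower. This count of 6 rested on the libraries and the scaling. It was 0 without wild-type replicate 3, 1 without Tsk replicate 4 and 2 without Tsk replicate 6. By DESeq2 and with the deposited TMM-normalised signal it was 4. It was 19 with a covariate for muscle marker level and 24 with the deposited TPM values. These counts take both directions together. The median log2 fold change of the 88 rows was -0.16 with that covariate and 0.40 with the TPM values. The median log2 fold change, Tsk minus wild type, was -0.06 over the 88 and -0.03 over all genes, and its sign turned to 0.20 with library totals alone as the scaling, which moved the median of all genes up by 0.28. Their quartiles were -0.18 and 0.01, narrower than the -0.24 and 0.25 of all genes. Of the 19971 genes, 10267 were at least as abundant as the lowest core gene, and these quartiles were not matched for abundance. The 95% interval lay within a 2-fold change for 84 of the 88 rows, 77 of the 77 core genes among them, and within 1.5-fold for 64 of the core genes, so larger changes lie outside these intervals while smaller ones do not. The 4 rows with wider intervals were Rpl3l, Rps23rg1, Rpl39l and Rpl36a-ps1. All 88 rows passed the filter on low counts.

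**Figure D2:**
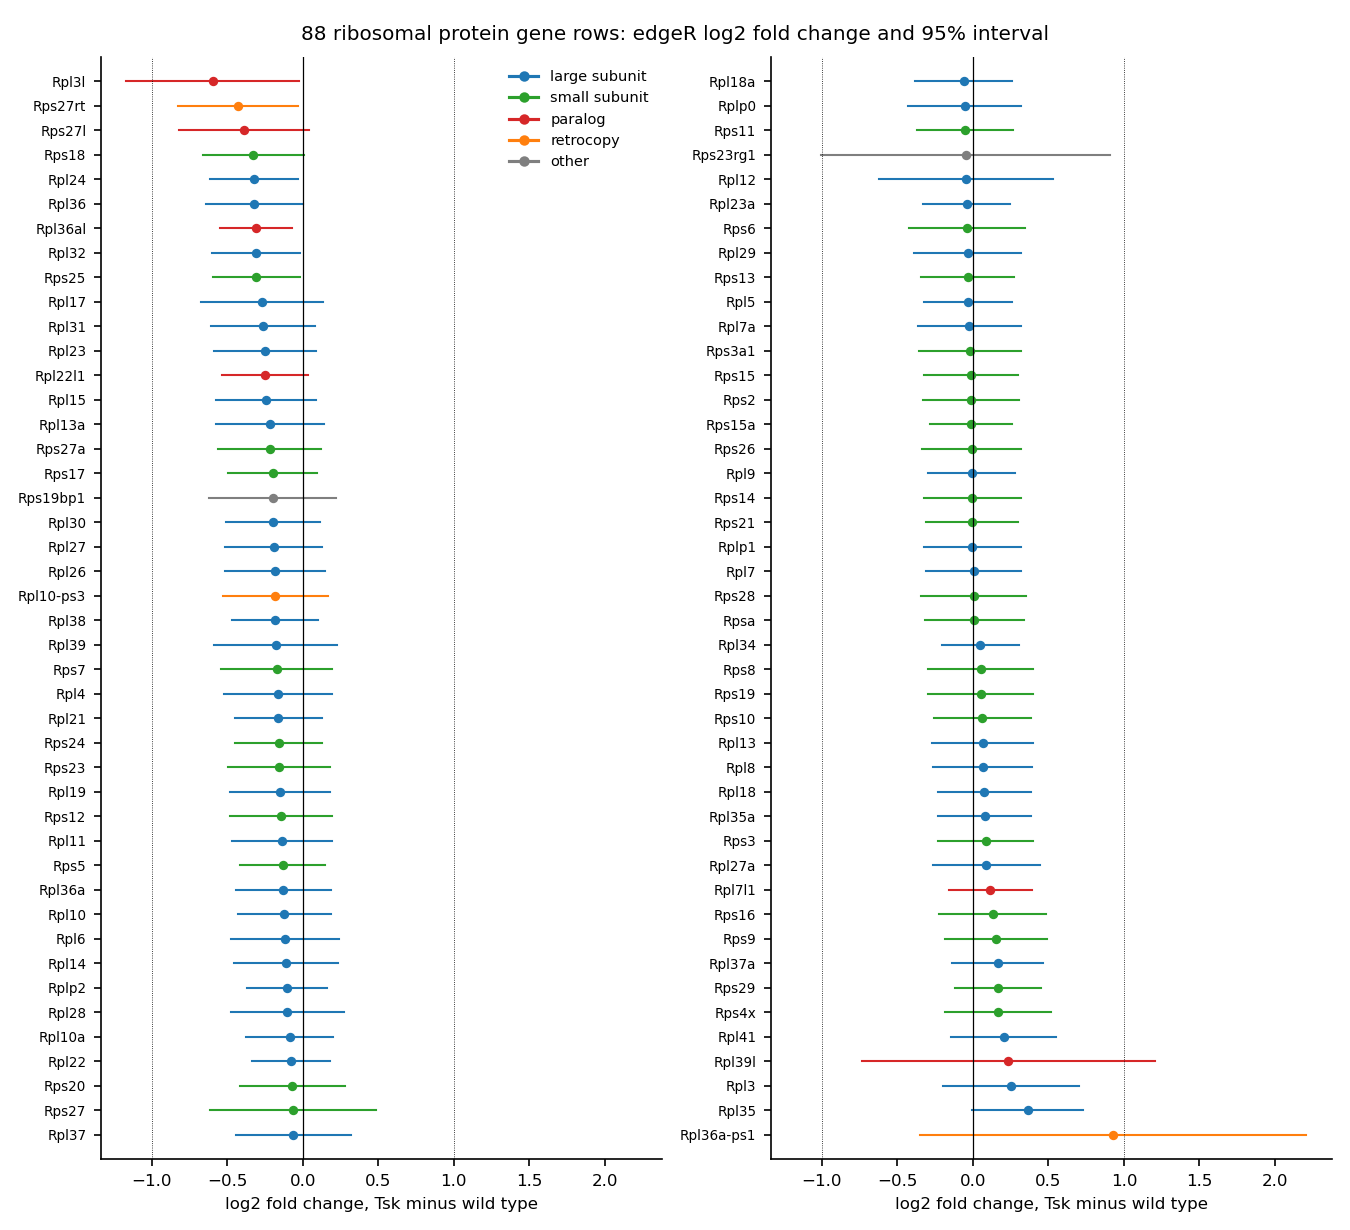
Log2 fold change, Tsk minus wild type (horizontal axis), with its 95% interval (bars) for each of the 88 rows, sorted and coloured by class; dotted lines mark a 2-fold change. The core genes lie between -0.33 and 0.36, and the widest interval belongs to Rpl36a-ps1.

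With TMM scaling, the large subunit had a median of -0.09 with 35 of 46 genes below 0, and the small subunit a median of -0.01 with 21 of 31 below 0. Rplp0 stood at 410, 360 and 385 CPM in wild-type replicates 1, 2 and 3 and at 413, 353 and 347 in Tsk replicates 4, 5 and 6. Its groups overlap, and its log2 fold change was -0.06 ± 0.16 (standard error, edgeR adjusted p = 0.892). The other stalk genes, Rplp1 and Rplp2, had log2 fold changes of -0.00277 ± 0.142 and -0.10 ± 0.12. Rpsa, the small subunit protein also known as a laminin receptor, stood at 258 ± 15.6 CPM in wild-type skin and 260 ± 7.65 in Tsk (SD, n = 3 each). Rps6, the target of S6 kinase below mTOR, stood at 177, 138 and 150 CPM in wild-type skin and 175, 150 and 128 in Tsk, a log2 fold change of -0.04 ± 0.17. Its groups overlap, and with copies added its value was 0.04 ± 0.14. Rpl5 and Rpl11, which bind the p53 regulator Mdm2 when ribosome assembly is disturbed, had log2 fold changes of -0.03 ± 0.13 and -0.14 ± 0.15 on their own rows, and 0.01 ± 0.15 and -0.08 ± 0.14 with copies added. Rps19, mutated in Diamond-Blackfan anaemia, had 0.05 ± 0.15, and Rps27a, which is made as a fusion with ubiquitin, had -0.22 ± 0.15, or -0.04 ± 0.15 with copies added. Rpl10, the last protein to join the large subunit, had -0.12 ± 0.14. A retrocopy of identical coding sequence, Rpl10-ps3, held 3.67 ± 0.291 times its counts in wild-type skin and 3.54 ± 0.182 in Tsk (SD, n = 3 each).

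The groups did not overlap for 11 of the 88 rows, 9 lower and 2 higher in Tsk, where 24.7% of all genes had groups that did not overlap, 14.1% higher and 10.6% lower. The higher rows were Rpl35 and Rps29. Rps29 stood at 134, 118 and 127 CPM in wild-type skin and 147, 138 and 141 in Tsk, a log2 fold change of 0.17 ± 0.13 (standard error, edgeR adjusted p = 0.519). Rpl35, at the exit of the peptide tunnel, stood at 5.94, 7.50 and 7.38 CPM in wild-type skin and 8.85, 8.49 and 9.44 in Tsk, and had the highest value of the core genes, 0.36 ± 0.16 (edgeR adjusted p = 0.253). With the reads of its copies added, an alternative chosen after seeing the data, the Rpl35 family held 2142, 1611 and 1806 counts in wild-type skin and 2242, 2140 and 1986 in Tsk. Its fold change then turned to -0.12 ± 0.14. Among the lower rows, Rpl24, at the subunit interface, stood at 42.2, 41.7 and 37.9 CPM in wild-type skin and 33.5, 35.8 and 27.9 in Tsk. All 3 Tsk libraries lie under the wild-type ones, and the log2 fold change was -0.32 ± 0.13 (edgeR adjusted p = 0.208). Rps18 (-0.33 ± 0.15), Rpl36 (-0.32 ± 0.14), Rpl32 (-0.31 ± 0.13), Rps25 (-0.31 ± 0.13, or -0.19 ± 0.12 with copies added) and Rps24 (-0.16 ± 0.13) were the other core genes with this order. Rps4x, the X-linked small subunit protein, stood at 0.17 ± 0.15 and Rpl41 at 0.20 ± 0.15, with overlapping groups. Across 22 alternatives of scaling, filter, tool and left-out library, 4 of the 34 rows named here by rule kept their sign throughout. They were Rpl36a-ps1, Rpl7l1, Rps29 and Rps4x, all above 0. Some of these scalings moved all genes up, library totals alone by 0.28 at the median. A row a little under 0 could turn positive with them, so this list depends on the alternatives chosen.

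The core genes also differed between libraries of the same group. Relative to each gene's mean over the 6 libraries, the 77 core genes had a median of 0.17 (log2 CPM with TMM factors) in wild-type replicate 1, -0.12 in replicate 2 and 0.01 in replicate 3. In Tsk replicates 4, 5 and 6 the median was 0.05, -0.01 and -0.13. Wild-type replicate 1 had 74 of the 77 genes above their mean and was the highest library for 51 of them. Wild-type replicate 2 was the lowest for 31 and Tsk replicate 6 for 34. Without wild-type replicate 1, the median log2 fold change of the 88 rows was 0.02 and that of all genes was also 0.02. The median coefficient of variation of a core gene was 11.3% in wild-type skin and 7.96% in Tsk, beside 11.8% and 11.4% for the 10267 genes tested at least as abundant as the lowest core gene.

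**Figure D3:**
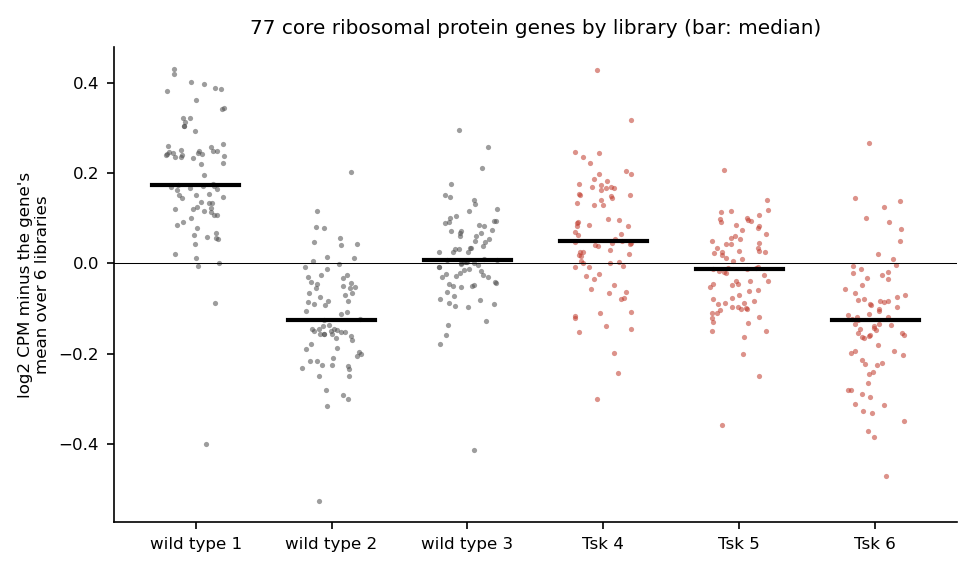
Log2 CPM minus the gene's own mean over 6 libraries (vertical axis) for 77 core ribosomal protein genes in each library; points are genes and bars are medians. Wild-type replicate 1 sits highest at 0.17, while wild-type replicate 2 and Tsk replicate 6 sit lowest at -0.12 and -0.13.

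Paralogs replace a core protein in some tissues, and their counts can be set against their counterpart within a library, with no scaling. Rpl3l and Rpl3 have 73.1% identical coding bases. Rpl3l lies on chromosome 17 from 24727820 to 24736143 (plus strand, mm10). It stood at 106, 216 and 178 CPM in wild-type skin and 123, 115 and 92.8 in Tsk. The wild-type replicates 2 and 3 are high, and wild-type replicate 1 lies among the Tsk libraries. Its log2 fold change of -0.59 ± 0.25 (standard error, edgeR adjusted p = 0.234) was the lowest of the 88 rows. Without wild-type replicate 1 it was -0.81 and passed (edgeR adjusted p = 0.0251), and over the 22 alternatives its adjusted p ran from 0.0251 to 0.941. The highest of these came with a covariate for muscle marker level, where its fold change was 0.04, the only alternative in which it was not below 0. Rpl3 stood at 113, 66.5 and 87.2 CPM in wild-type skin and 120, 104 and 94.6 in Tsk, a log2 fold change of 0.25 ± 0.20. The ratio of Rpl3l to Rpl3 counts was 0.931, 3.25 and 2.04 in wild-type skin and 1.03, 1.10 and 0.981 in Tsk. Wild-type replicate 1 had a lower ratio than every Tsk library and the other wild-type libraries a higher one, so the groups overlap (exact permutation test, two-sided p = 0.4). With the copies of Rpl3 added, the ratio was 0.553, 1.77 and 1.14 in wild-type skin and 0.565, 0.646 and 0.517 in Tsk. Its means were then 1.15 and 0.576 in place of 2.07 and 1.04, and wild-type replicate 1 lay between the Tsk libraries.

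Of 8 such ratios computed from the genes' own rows, 1 had groups that did not overlap. Rpl7l1, a nucleolar factor of large subunit assembly, over Rpl7 stood at 0.142 ± 0.00561 in wild-type skin and 0.153 ± 0.00690 in Tsk (SD, n = 3 each). Its exact two-sided p was 0.1, the smallest that 3 against 3 allows, and 0.533 after adjustment over the 8. Rpl36al, an intronless paralog of Rpl36a, stood at 48.9, 48.9 and 51.8 CPM in wild-type skin and 41.7, 39.7 and 39.1 in Tsk. All Tsk libraries lie under the wild-type ones, and its log2 fold change of -0.31 ± 0.10 had the smallest adjusted p of the 88 rows (edgeR, 0.145), or 0.0763 with copies added. The ratio of Rpl36al to Rpl36a was 1.32 ± 0.0675 in wild-type skin and 1.18 ± 0.151 in Tsk and overlapped. With copies added to both genes it was 1.12, 1.15 and 1.17 in wild-type skin and 0.954, 0.802 and 0.989 in Tsk, which did not overlap (exact permutation test, two-sided p = 0.1). Their coding sequences share 87.7% of bases. Rpl22l1, a paralog of the RNA-binding protein Rpl22, stood at 14.1 ± 0.245 CPM in wild-type skin and 11.8 ± 0.516 in Tsk (SD, n = 3 each), a log2 fold change of -0.25 ± 0.12 (edgeR adjusted p = 0.307). The groups do not overlap, while its ratio to Rpl22 did (0.194 ± 0.0153 against 0.171 ± 0.00978).

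Rps27l, a p53-induced paralog of Rps27, had a ratio to Rps27 of 0.315, 0.489 and 0.747 in wild-type skin and 0.353, 0.389 and 0.413 in Tsk. The Tsk values lie inside the wild-type range. Rps27rt, with a coding sequence identical to that of Rps27, had a ratio of 0.709, 0.799 and 1.59 in wild-type skin and 0.521, 0.712 and 1.12 in Tsk, and the division of reads between such rows is a choice of the counting. Rps27rt stood at 33.9 ± 5.92 CPM in wild-type skin and 25.1 ± 4.44 in Tsk (log2 fold change -0.43 ± 0.17), and Rps27 at 35.6 ± 9.53 and 34.1 ± 8.30. Rpl39l rested on a mean of 12.8 counts a library, with a log2 fold change of 0.23 ± 0.43. Rpl36a-ps1, with 97.8% of coding bases as in Rpl36a, had the highest value of all rows at 0.93 ± 0.56, from 0.952 ± 0.676 to 1.86 ± 1.10 CPM with overlapping groups (edgeR adjusted p = 0.404). The rows that are no ribosomal proteins, Rps19bp1 and Rps23rg1, stood at -0.20 ± 0.18 and -0.05 ± 0.42.

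**Figure D4:**
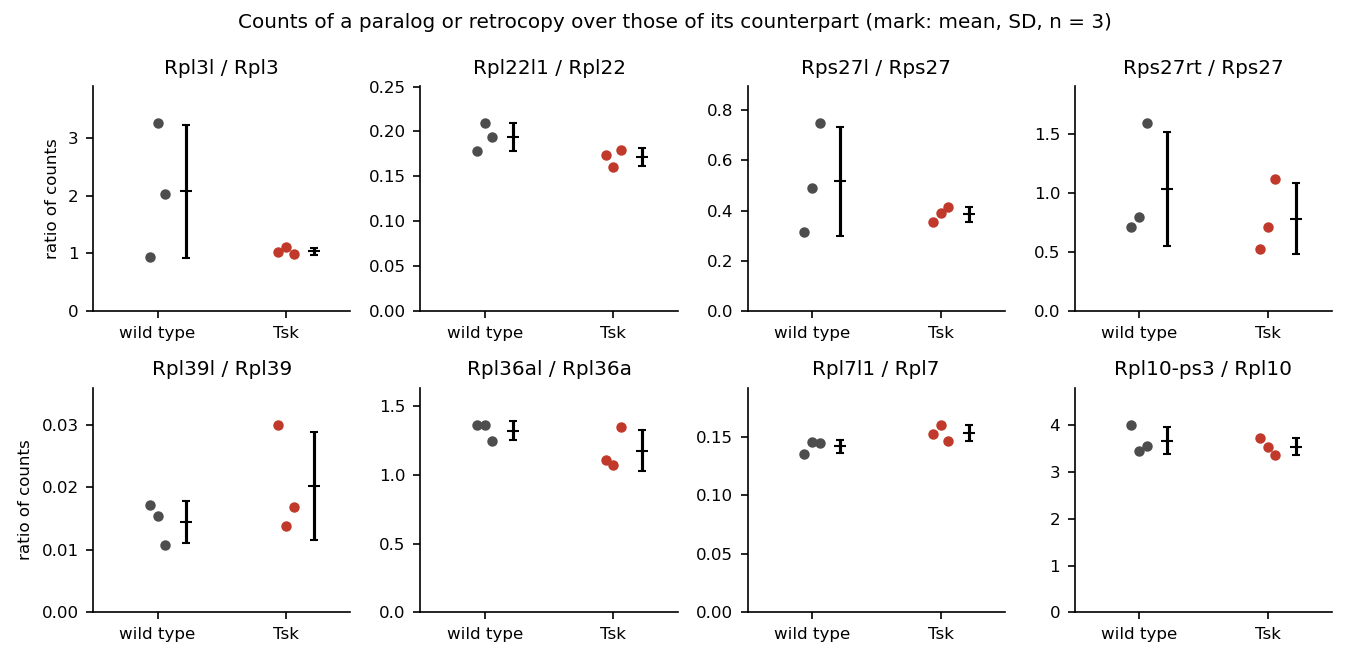
Counts of a paralog or retrocopy divided by those of its counterpart in the same library (vertical axis, from 0) for 3 wild-type (grey) and 3 Tsk (red) libraries; marks give mean and SD. Rpl3l over Rpl3 ranged from 0.931 to 3.25 in wild-type skin and stayed between 0.981 and 1.10 in Tsk.

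The share of all counts taken by the 88 rows was 0.881, 0.594 and 0.693% in wild-type replicates 1, 2 and 3 and 0.862, 0.842 and 0.801% in Tsk replicates 4, 5 and 6. That is 0.723 ± 0.146% in wild-type skin and 0.835 ± 0.0315% in Tsk (SD, n = 3 each), with wild-type replicate 1 above every Tsk library. The 20 skeletal muscle markers took 17.7, 25.8 and 24.4% in wild-type skin and 17.6, 16.5 and 15.3% in Tsk, so the 2 libraries with the most muscle RNA had the smallest ribosomal protein share and the highest Rpl3l share. The median log2 fold change of the muscle markers was -0.79, with 0 of 20 passing and none at 0 in every library. At an unadjusted edgeR p under 0.05, 12 were lower and 1 higher, where 7.95% of all genes were lower and 12.1% higher. The part of the muscle markers in these results was not tested. Of protein-coding counts without the muscle markers, the core genes took 1.27 ± 0.235% in wild-type skin and 1.24 ± 0.0812% in Tsk, a difference of the opposite sign. Ribosomal RNA genes were taken by a rule that includes mitochondrial ribosomal RNA, so their share is not that of cytosolic ribosomal RNA alone. The share of ribosomal RNA genes, which library preparation depletes, was 6.93 ± 0.851% in the wild-type and 4.30 ± 1.45% in the Tsk libraries. Without them in the total, the 88 rows took 0.777 ± 0.162% and 0.873 ± 0.0363%.

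**Figure D5:**
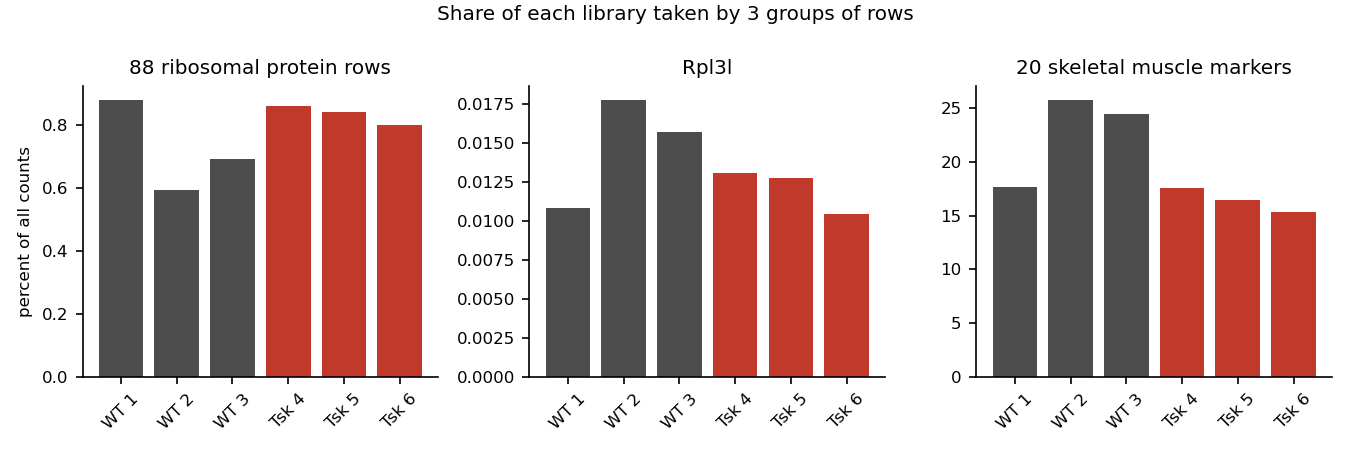
Percent of all counts (vertical axes, from 0, different scales) taken by the 88 ribosomal protein rows, by Rpl3l and by 20 skeletal muscle markers in each wild-type (grey) and Tsk (red) library. Wild-type replicates 2 and 3 are lowest for the 88 rows and highest for Rpl3l and the muscle markers.

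Of the other marker lists, 4 of 10 dermal fibroblast, 3 of 15 adipocyte, 3 of 8 endothelial, 4 of 9 suprabasal keratinocyte and 5 of 10 hair matrix genes passed as higher in Tsk, while 0 passed in the basal keratinocyte, macrophage, T cell, B cell, red blood cell and proliferating cell lists. At an unadjusted edgeR p under 0.05, 5 of 8 macrophage and 1 of 7 T cell genes were higher. By that measure 1 of 8 basal keratinocyte and 1 of 8 proliferating cell genes were lower. Of all genes, 2.72% passed as higher in Tsk, and 12.1% were higher and 7.95% lower at that unadjusted p. The proliferating cell markers took 0.0207, 0.00956 and 0.0134% of counts in wild-type skin and 0.0152, 0.0125 and 0.0139% in Tsk. The basal keratinocyte markers took 1.02, 0.611 and 0.664% in wild-type skin and 0.818, 0.584 and 0.571% in Tsk. Both were highest in wild-type replicate 1, where the ribosomal protein rows were highest too, and their part in that was not tested.

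The other genes of translation were read from lists, with medians on the TMM scale. Library totals alone moved the median of all genes up by 0.28, which is more than any of these 10 medians lies from 0. The signs of medians below 0 therefore depend on the scaling. Relative log expression and upper-quartile factors moved the median of all genes by 0.003 and -0.04. Of 3 ribosomal proteins that the name rule leaves out, 0 passed. Fau, made as a fusion of a ubiquitin-like protein with a small subunit protein, had a log2 fold change of 0.10 ± 0.12, and Rack1, the signalling scaffold on the small subunit, 0.06 ± 0.15. In the list of elongation factors 0 of 12 passed, with Eef1a1, which brings transfer RNA to the ribosome, at 0.21 ± 0.23 and Eef2, which moves the ribosome along, at -0.09 ± 0.19, and 2 of the 12 were lower at an unadjusted edgeR p under 0.05. Of 41 initiation factors 0 passed, with a median of -0.18, 10 at an unadjusted edgeR p under 0.05 and all 10 lower. Of all genes, 12.1% were higher and 7.95% lower by that measure. Pabpc1, the poly(A)-binding protein and a TOP gene, stood at 0.08 ± 0.18 and Eif4g2 at -0.11 ± 0.19. Of 27 other TOP genes 0 passed (median -0.09), with 1 higher and 2 lower at an unadjusted p under 0.05. Of 15 snoRNA host genes 0 passed (median 0.04) and 1 was lower at an unadjusted p under 0.05, with Gas5 at -0.09 ± 0.15 and Snhg17 at -0.04 ± 0.16.

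Ribosome assembly needs many further genes. Of 89 biogenesis factors 1 fell and 0 rose, with a median of -0.19, 78 below 0 (10584 of the 19971 genes tested were) and 17 at an unadjusted edgeR p under 0.05, all lower, where 7.95% of all genes were lower by that measure. The gene that fell was Rrp12, a nucleolar factor of pre-ribosome export, at 36.3, 53.8 and 50.4 CPM in wild-type skin and 26.9 ± 3.21 CPM (SD, n = 3) in Tsk, a log2 fold change of -0.80 ± 0.17 (edgeR adjusted p = 0.0410). Among 20 genes of the RNA polymerase I machinery, which transcribes ribosomal RNA, 1 fell, Taf1d, a subunit of the selectivity factor, from 65.6 ± 3.05 to 43.9 ± 1.15 CPM, or -0.58 ± 0.11 (edgeR adjusted p = 0.0273). Both passed in 1 of the 6 fits that left out 1 library and in 11 of the 22 alternatives, and both kept a negative value in all 22. Leaving out wild-type replicates 2 or 3 or any of the Tsk libraries ended both calls. So did library totals alone as the scaling, with -0.51 for Rrp12 (edgeR adjusted p = 0.0555) and -0.30 for Taf1d (edgeR adjusted p = 0.209), and over the 22 alternatives Rrp12 ran from -0.93 to -0.20 and Taf1d from -0.62 to -0.07. With a covariate for muscle marker level, neither passed, at -0.45 for Rrp12 and -0.58 for Taf1d.

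Of 32 genes of growth control 0 passed, and 4 were higher and 1 lower at an unadjusted edgeR p under 0.05. Of all genes, 12.1% were higher and 7.95% lower by that measure. Larp1 stood at -0.17 ± 0.14 and Eif4ebp2, a brake on cap-dependent translation, at -0.09 ± 0.18. Of 78 mitochondrial ribosomal proteins 0 passed, with a median of -0.21, 71 below 0 and 2 lower at an unadjusted p under 0.05, such as Mrpl51 at -0.30 ± 0.18 and Mrpl37 at -0.24 ± 0.16. Of 32 factors that meet the nascent chain 0 passed and 3 were higher and 8 lower at an unadjusted edgeR p under 0.05, with Naca, which has a long muscle isoform, at -0.58 ± 0.22 and Serbp1 at -0.39 ± 0.18. Naca stood at 714 ± 150 CPM in wild-type skin and 477 ± 49.5 in Tsk (SD, n = 3 each), and it passed in 1 of the 22 alternatives, without wild-type replicate 1 (edgeR adjusted p = 0.0352).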

How the data were processed

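Total RNA of dorsal skin was depleted of ribosomal RNA and made into stranded libraries, per the labels' protocols. The submitters' processing notes name STAR, Partek 7.0, bcl2fastq 2.19.1.403 and the mm10 build. How reads were assigned, and to which gene models, is not given in the sources used here. Deposited by the authors were estimated counts (expected counts) per gene, of which 30.1 to 32.6% per library are not whole (tolerance 0.001), CPM values with 0.0001 added to each count, a TMM-normalised signal and TPM values, whose columns sum to 470308. Counts were rounded and tested with edgeR 4.0.16 (R 4.3.3; quasi-likelihood F-test, robust, TMM factors, minimum count 10, minimum total 15), with Benjamini-Hochberg adjusted p under 0.05 called. CPM in the text are TMM-scaled, levels are mean ± SD and log2 fold changes ± SE. A 95% interval is from the quasi-likelihood degrees of freedom. Alternatives used DESeq2 1.42.0 and limma 3.58.1. The test was first tried on simulated data. Coding sequences, lengths and copies come from GENCODE M21, which matched 52904 of 55291 rows by symbol, span and strand, and copies were found with blastn. No source names molecular identifiers, so reads may repeat a molecule and depth speaks for counting error only.

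Members and lists were chosen with earlier results of these data known. Named were the 6 highest and 6 lowest fold changes, the 4 highest and 4 lowest levels per kilobase, a set of members fixed by name (Rplp0, Rplp1, Rplp2, Rpsa, Rps6, Rpl10, Rpl11, Rpl5, Rps19, Rps27a, Rpl41, Rps4x, Rps19bp1 and the paralog pairs), and per list up to 4 genes past the threshold or else the 2 most abundant. Genes named outside this rule (Rpl32, Rps25, Rps24, Rps23rg1, Rpl10-ps3) were chosen after their values were seen.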

Additional observations from a re-analysis of the deposited data

How the results depend on the processing

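No paired analysis was possible because the groups share no replicate number. No named gene that passed changed sign in any of the 22 alternatives. Members called higher stayed at 0 in all 22, and members called lower at 0 in 21, with leave-one-out counts of 0 to 1 (Rpl3l, without wild-type replicate 1). The median log2 fold change of members, -0.06 as reported, was 0.20 with library totals alone, 0.21 and 0.20 with the deposited CPM plus 0.5 and plus 1, 0.40 with the deposited TPM and 0.0855 with the deposited TMM-normalised signal (limma-trend, the last added after seeing the data), where all genes stood at 0.25, 0.23, 0.20, 0.21 and 0.11. It was -0.16 with the muscle score as a covariate and -0.12 to 0.02 with 1 library left out. All genes called, 683 as reported (544 higher, 139 lower), were 1791 with library totals alone (1695 higher, 96 lower), 1157 without a filter, 1535 by DESeq2, 1888, 1871, 1341 and 1272 with the deposited CPM plus 0.5, CPM plus 1, TPM and TMM-normalised signal, 70 with the muscle covariate, and 63 (without wild-type replicate 3) to 1381 with 1 library left out; the cause was not tested. The difference in the members' share of all counts, 0.112 percentage points, kept its sign over protein-coding counts, over counts without muscle markers, over counts without ribosomal RNA genes and with copies added. It ran from 0.0482 to 0.191 with 1 library left out. The sign turned for the core genes over protein-coding counts without the muscle markers, where the difference was -0.0225 percentage points.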

Other observations

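Within a library, Rpl3l held 1.18, 1.30 and 1.23 counts per 1000 counts of the skeletal muscle markers other than Ttn in wild type, and 1.41, 1.51 and 1.33 in Tsk. The Tsk libraries all lie above the wild-type ones (exact permutation test, two-sided p = 0.1, the smallest that 3 against 3 allows), while with Ttn included the groups overlapped, at 0.648 ± 0.0393 and 0.734 ± 0.0469 (SD, n = 3 each).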
